A study of Homo sapiens with 18 samples.

Results

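The 9 polyamine pathway genes described here are OAZ1, OAZ2, AZIN1, AMD1, ODC1, SAT1, SMOX, SRM and SMS, which make polyamines, break them down or set how much enzyme is available. With earlier results of these data known, the genes were chosen by symbol from knowledge of the pathway, with no measured value in the rule. They are 9 of the 13661 genes in the table, and 9 of 9 were among the 12720 genes kept for testing, those with a mean of at least 10 reads per library and reads in each gradient. The cells were HEK293, an established human embryonic kidney line, given DMSO vehicle for 12 h. Their lysates were spun through sucrose gradients, which sort mRNAs by how many ribosomes they carry, and each gradient was pooled into a monosome, a light polysome and a heavy polysome fraction for sequencing. Every library used here comes from vehicle-treated, unmodified cells, with 3 biological replicates (3 gradients) of each of the 3 fractions. The series also has 9 libraries of cells given 100 µM minocycline, an antibiotic, and these are not analysed here.

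Polyamines are small positively charged molecules that bind RNA and that growing cells need. ODC1 (ornithine decarboxylase) makes putrescine from ornithine, AMD1 (S-adenosylmethionine decarboxylase) supplies the aminopropyl donor, and the spermidine and spermine synthases SRM and SMS add aminopropyl groups in turn. Antizymes (OAZ1, OAZ2) bind ODC1 and send it to the proteasome, and antizyme inhibitor (AZIN1), an inactive relative of ODC1, binds antizyme instead. SAT1 acetylates spermidine and spermine, and SMOX oxidises spermine back to spermidine. The pathway is known for control at translation. Polyamines stimulate the ribosomal frameshift needed to read antizyme mRNA, they hold back AMD1 mRNA through a short upstream reading frame, and they release SAT1 mRNA from translational repression.

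Library depth ranged over 13447139 to 16145486 reads in monosomes, 16809945 to 19558832 reads in light polysomes and 15103945 to 24441159 reads in heavy polysomes. Light polysome library 2 stood apart from the other light libraries. Across genes its log2 values correlated at a mean r of 0.94 with the heavy polysome libraries and 0.8939 with light libraries 1 and 3, which correlated at 0.9854 with each other. The comparisons with light polysomes are therefore also given without it, as counts of members called and for some members. MRL was not run without this library alone, only without the whole of replicate 2. All 6 HEK293 markers looked for (VIM, PAX2, NEFM, NEFL, INA and UCHL1) were kept, with mean reads per library from 105.2 for PAX2 to 6961 for VIM. Of 12 markers of other cell types, 5 were in the table and all 5 were kept. Their mean reads per library ran from 10.1 for COL3A1 to 77.4 for HBA1, not far below PAX2 and INA (143.8). In bulk lysates, fewer cells carrying an mRNA and less of it per cell cannot be told apart. The deposited scaling sets every fraction to the same typical gene, so a share or a load places a gene relative to other genes and says nothing of the amount of RNA in a fraction.

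The sequences through which antizyme and AMD1 mRNAs are known to be regulated lie in annotated transcripts of OAZ1, OAZ2 and AMD1. Reads were counted per gene, so which transcripts of a gene gave the reads is not known. Whether these sequences bear on the ribosome load of the 3 mRNAs was not tested. The sequences come from GENCODE release 29 transcripts on GRCh38, read 5′ to 3′. In both antizyme stretches the capitals mark the last codon read in the first frame, TCC, the stop codon TGA and the base after it. Ribosomes that shift forward past the T of TGA go on to make full-length antizyme, and the annotated coding sequence leaves that T out, at position 2271443 of chromosome 19 for OAZ1 and position 64691515 of chromosome 15 for OAZ2. The OAZ1 stretch spans chr19:2271410-2271482 on the plus strand and the OAZ2 stretch spans chr15:64691476-64691548 on the minus strand.
OAZ1: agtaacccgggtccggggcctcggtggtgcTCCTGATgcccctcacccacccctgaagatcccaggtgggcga
OAZ2: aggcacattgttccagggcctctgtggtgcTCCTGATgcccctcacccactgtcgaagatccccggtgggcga
The antizyme sites share 60 of 73 bases (82.19%). The AMD1 upstream reading frame, at chr6:110874796-110874816 on the plus strand in the 5′ untranslated region, is 21 nt long, begins 26 nt from the start of the transcript and ends 289 nt before the main start codon. Capitals mark its start and stop codons, with 6 codons before the stop.
AMD1: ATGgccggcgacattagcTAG

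Ribosome load was lower than that of the typical HEK293 mRNA for 5 of the 9 genes. Mean ribosome load (MRL) is the authors' score for this. It weights a gene's share in monosomes by 1, in light polysomes by 2.5 and in heavy polysomes by 6, and a share is the percentage of the gene's scaled count over the 3 fractions of a gradient. The median MRL of the 9 genes was 2.58, 2.43 and 2.61 in gradients 1, 2 and 3, against 3.17, 3.17 and 3.16 for all genes kept. OAZ1, OAZ2, AMD1, SRM and SAT1 had a lower MRL than the median gene and no member a higher one, by limma's moderated test of log2 MRL minus the median gene of each gradient, at an adjusted p under 0.05. That is 5 of 9 lower, where 24.7% of all genes tested were called lower, and 0 of 9 higher, where 22.0% were. An unadjusted p under 0.05 was found for 7 of 9 members and for 6947 of the 12720 genes tested. The median log2 difference was -0.34 over the members and 0.011 over all genes tested. The result depends on how load is summarised. With the share of signal in polysomes (light plus heavy) in place of MRL, 1 member of 9 (SAT1) was called lower, where 11.6% of all genes were, and 2 of 9 (AZIN1 and SMOX) higher, where 20.0% were.

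**Figure D1:**
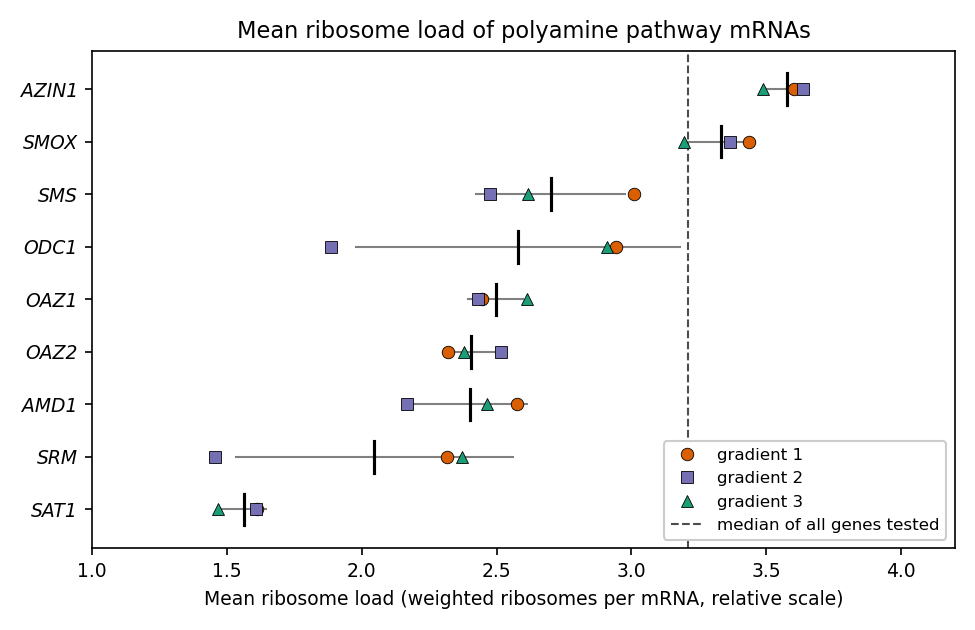
Mean ribosome load (x axis, relative scale) of the 9 polyamine pathway mRNAs, with 1 symbol for each gradient, a vertical tick for the mean, a line for ± 1 SD and a dashed line for the median of all genes tested (3.21). AZIN1 and SMOX lie at the top with means of 3.58 and 3.33, SAT1 at the bottom with 1.56, and gradient 2 is well below gradients 1 and 3 for ODC1 and SRM.

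By mean MRL the genes ran from AZIN1 and SMOX at the top through SMS, ODC1, OAZ1, OAZ2, AMD1 and SRM to SAT1 at the bottom, as the plot of ribosome load by gene shows. AZIN1 lay above SMOX by 0.243 and SMOX above SMS by 0.633, and in both cases the values of the 3 gradients did not overlap. Each neighbouring pair below SMS overlapped. The gaps there were 0.122 from SMS to ODC1, 0.0825 from ODC1 to OAZ1, 0.0920 from OAZ1 to OAZ2 and 0.00127 from OAZ2 to AMD1, and in none of these 4 pairs was the order the same in all 3 gradients. AMD1 exceeded SRM in 3 of 3 gradients and SRM exceeded SAT1 in 2 of 3. Over all 36 pairs of members, the gradients' ranges were apart in 22 and the order was the same in all 3 gradients in 27. The same counts over pairs of other genes kept were not computed, so these describe the members only.

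The antizyme mRNAs were concentrated in light polysomes. OAZ1 (chr19:2269509-2273490, plus strand) had 66.8%, 33.8% and 66.4% of its signal in light polysomes in gradients 1, 2 and 3. Its monosome shares were 24.3%, 47.7% and 21.2%, and its heavy polysome shares 8.84%, 18.5% and 12.3%. Light polysomes led in gradients 1 and 3 and monosomes in gradient 2, while heavy polysomes were lowest in each. Its MRL was 2.45, 2.43 and 2.61, a log2 difference of -0.34 (SE 0.091) from the median gene, lower in 3 of 3 gradients (limma adjusted p = 0.0162). The 3 loads lie close together although the shares of gradient 2 differ from the others. There the light polysome share was smaller and the monosome and heavy polysome shares were larger. The OAZ1 scaled counts of gradient 2 were the lowest of the 3 gradients in each fraction (monosome 10801, light 7644, heavy 4187). The larger shares thus do not mean higher counts. With polysome share in place of MRL the OAZ1 difference was -0.026 (limma adjusted p = 0.896), without replicate 1 the MRL difference was -0.33 (limma adjusted p = 0.147), and with weights of 1, 2 and 3 it was -0.15 (limma adjusted p = 0.102).

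OAZ2 (chr15:64687573-64703281, minus strand), the second broadly expressed antizyme, had a layout close to that of OAZ1. Its light polysome shares were 62.2%, 32.96% and 54.7%, its monosome shares 30.1%, 46.6% and 34.1%, and its heavy polysome shares 7.71%, 20.4% and 11.2%. Again light polysomes led in gradients 1 and 3 and monosomes in gradient 2. Its MRL of 2.32, 2.52 and 2.38 was lower than the median gene by a log2 difference of -0.40 (SE 0.092, limma adjusted p = 0.00884, 3 of 3 gradients). Without replicate 1 the adjusted p by limma was 0.0952. OAZ1 averaged 15913 reads per library and OAZ2 1097 reads. OAZ1 overlaps exons of JSRP1 on the opposite strand and of AC005258.1 on the same strand, and OAZ2 those of AC100830.3 on the opposite strand. Whether counting used strand is not given in the sources used here, and strand would not separate AC005258.1 in any case. Reads from these overlaps therefore cannot be told apart from antizyme reads.

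AZIN1, the antizyme inhibitor, sat at the other end of the range and had the smallest SD of MRL among the members (0.0762). It had 40.1%, 40.7% and 36.9% of its signal in heavy polysomes, 39.99%, 40.1% and 42.9% in light polysomes and 20.0%, 19.2% and 20.2% in monosomes. Its heavy and light shares overlapped, and both lay above its monosome share in each gradient. The SD over gradients was 0.522 points for the monosome share, against 14.5 points for OAZ1. Its MRL was 3.60, 3.64 and 3.49, above 68.1% of genes kept, with a log2 difference of 0.18 (SE 0.082) in 3 of 3 gradients that did not pass the test (limma adjusted p = 0.11). It passed by polysome share (0.22, limma adjusted p = 0.0156) and when MRL was centred on the mean gene (0.23, limma adjusted p = 0.0462). That centring put the median of all genes at 0.068. With it 3537 of the 12720 genes tested were called higher, against 2798 with the median gene as centre. AZIN1 (chr8:102826357-102893864, minus strand) had the longest 5′ untranslated region among the transcripts annotated for the members, 1164 nt with 6 upstream ATGs, and overlaps AZIN1-AS1 on the opposite strand.

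**Figure D2:**
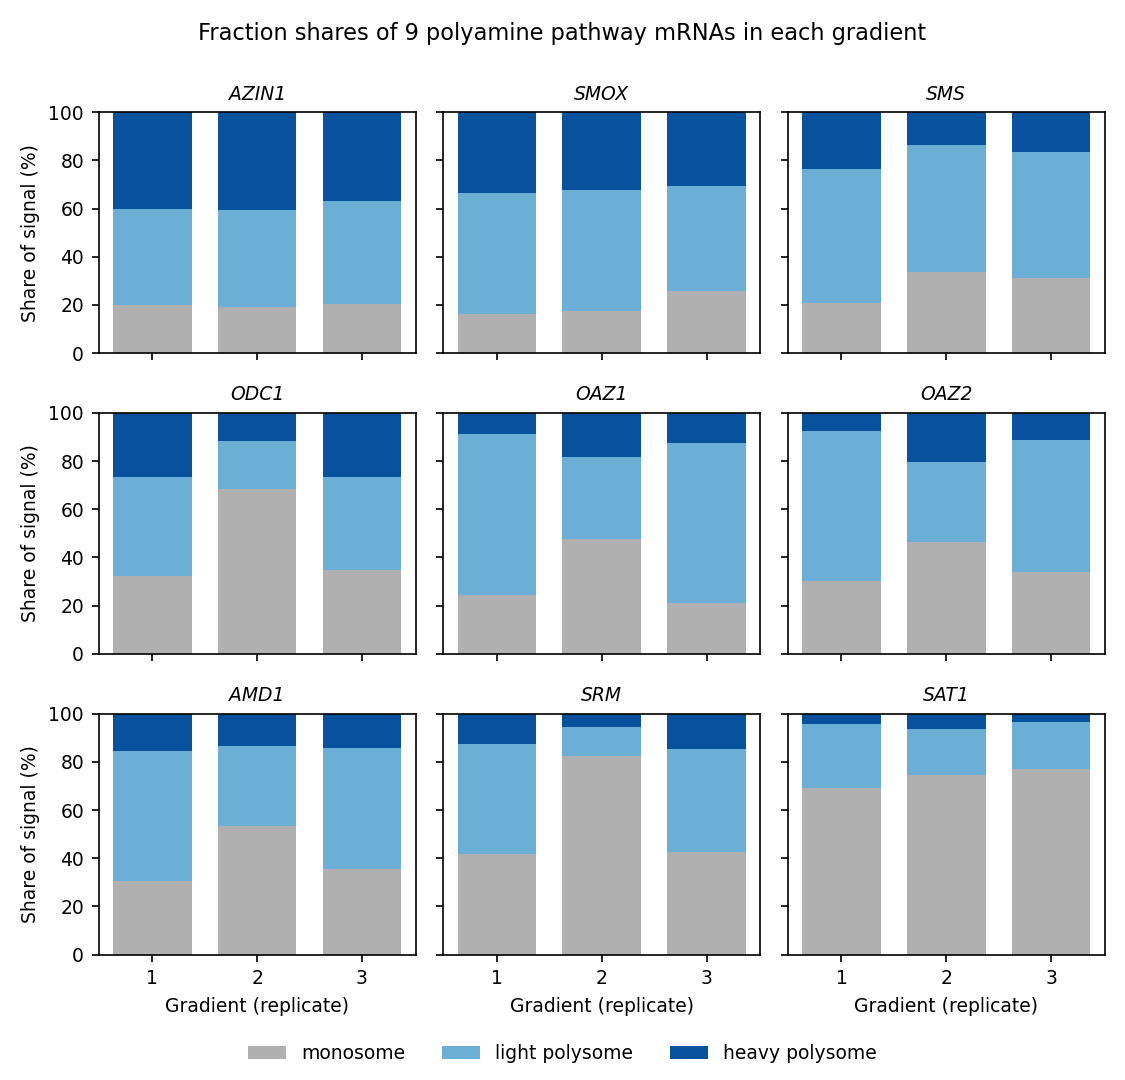
Share of signal (y axis, %) in monosome (grey), light polysome (light blue) and heavy polysome (dark blue) fractions for each of the 9 genes, with 1 stacked bar for each gradient (x axis). AZIN1 keeps nearly the same layout in all 3 gradients, while the grey part of SRM is 82.6% in gradient 2 against 41.9% and 42.5% in gradients 1 and 3.

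The enzymes that build polyamines lay mostly in monosomes and light polysomes. ODC1 (chr2:10439968-10448504, minus strand), which makes putrescine, had monosome shares of 32.2%, 68.6% and 34.7%. Light polysomes held 41.3%, 19.6% and 38.7% of its signal and heavy polysomes 26.5%, 11.8% and 26.5%. Gradients 1 and 3 were close and gradient 2 stood apart, with monosomes leading there. The MRL of ODC1 was 2.94, 1.89 and 2.91, and its log2 difference from the median gene of -0.33 (SE 0.14) did not pass (limma adjusted p = 0.0843) although it was below 0 in 3 of 3 gradients. Gradient 2 sets the size of that value. Without replicate 2 it was -0.11 (limma adjusted p = 0.298), and it passed without replicate 1 (-0.43, limma adjusted p = 0.047) and without replicate 3 (-0.43, limma adjusted p = 0.00845).

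AMD1 (chr6:110874770-110895713, plus strand), whose upstream reading frame is shown above, had a heavy polysome share that hardly varied, at 15.4%, 13.4% and 14.2%. Its light polysome shares were 53.9%, 33.2% and 50.1% and its monosome shares 30.7%, 53.4% and 35.7%. The shares thus differed between gradients mainly in light polysomes and monosomes, with light polysomes leading in gradients 1 and 3. The scaled counts of AMD1 were lowest in gradient 2 in each fraction. They were 787 in heavy polysomes there against 2459 and 1946 in gradients 1 and 3, 1950 in light polysomes against 8619 and 6846, and 3134 in monosomes against 4912 and 4876. MRL was 2.58, 2.17 and 2.46, lower than the median gene (log2 difference -0.40, SE 0.098, limma adjusted p = 0.011, 3 of 3 gradients). By polysome share the difference was -0.22 and did not pass (limma adjusted p = 0.293).

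SRM (chr1:11054584-11060024, minus strand), spermidine synthase, had the lowest load of the 4 enzymes of synthesis. Its monosome shares were 41.9%, 82.6% and 42.5%, its light polysome shares 45.4%, 11.9% and 43.1%, and its heavy polysome shares 12.7%, 5.52% and 14.5%. The scaled monosome count was 22362 in gradient 2 against 9576 and 10566 in gradients 1 and 3, while the light polysome count was 3219 against 10353 and 10715. MRL was 2.32, 1.45 and 2.37, lower than the median gene by a log2 difference of -0.66 (SE 0.15, limma adjusted p = 0.00714, 3 of 3 gradients), and above only 8.57% of genes kept. Without replicate 2 the difference was -0.43 and still passed (limma adjusted p = 0.00329), while by polysome share it did not (-0.83, limma adjusted p = 0.0883).

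SMS (chrX:21940573-21994835, plus strand), spermine synthase, kept more than 50% of its signal in light polysomes in every gradient (55.9%, 52.5% and 52.2%). It had 20.7%, 33.8% and 31.1% in monosomes and 23.4%, 13.8% and 16.7% in heavy polysomes. Its mean light polysome share of 53.5% ± 2.05 (SD, n = 3) exceeded that of 96.9% of genes kept. MRL was 3.01, 2.48 and 2.62, and the log2 difference of -0.23 (SE 0.098) did not pass (limma adjusted p = 0.0814). It passed with a filter of at least 50 reads (-0.25, limma adjusted p = 0.0499) and with scaling to total reads (-0.27, limma adjusted p = 0.0201). Of the enzymes of synthesis, AMD1, ODC1 and SRM have 4, 1 and 2 named pseudogenes, of which 0 are in the table. How reads that match both a gene and its pseudogene were counted was not stated, so the counts of these 3 genes are uncertain to that extent.

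The 2 catabolic genes lay far apart. SAT1 (chrX:23783173-23786226, plus strand), the acetyltransferase, had 69.3%, 74.7% and 77.0% of its signal in monosomes. Light polysomes held 26.4%, 18.7% and 19.6% of it and heavy polysomes 4.30%, 6.56% and 3.42%. Monosomes led in each gradient, with no overlap between fractions. SAT1 had an MRL of 1.61, 1.61 and 1.46, above only 1.99% of genes kept, and a log2 difference of -1.02 (SE 0.090, limma adjusted p = 0.00022, 3 of 3 gradients). SAT1 kept this call under every alternative run for the MRL test. Its scaled monosome counts were 4233, 6041 and 9588, so the level differed between gradients while monosomes led in each.

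SMOX (chr20:4120980-4187747, plus strand), spermine oxidase, was led by light polysomes in each gradient, at 50.1%, 50.05% and 43.5%. Its heavy polysome shares were 33.7%, 32.3% and 30.9% and its monosome shares 16.2%, 17.6% and 25.7%. The fractions kept the same order, light then heavy then monosome, in all 3 gradients. MRL was 3.44, 3.37 and 3.20, a log2 difference of 0.074 (SE 0.085) that did not pass (limma adjusted p = 0.504). By polysome share SMOX was higher than the median gene (0.21, limma adjusted p = 0.0231). It was the member with the fewest reads, and monosome library 1 held 24 of them (95% Poisson interval 15.4 to 35.7, which covers counting error only). Counting error thus weighs most on its monosome values. The spread over gradients was larger for other members, with an SD of the monosome share of 5.12 points for SMOX and 23.3 points for SRM.

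AZIN1 was the 1 member of 9 that was higher in heavy polysomes than in monosomes, by limma on log2(scaled count + 1) over all 9 libraries, where 24.7% of all genes tested were called higher. OAZ2, AMD1, SRM and SAT1 were lower, 4 of 9, where 24.4% of all genes were called lower. The median log2 difference was -1.20 over the members and 0.13 over all genes. AZIN1 had scaled counts of 2047, 2416 and 1983 in heavy polysomes, against 1019.9, 1139.6 and 1083 in monosomes, a log2 difference of 0.99 (SE 0.31, limma adjusted p = 0.018). SAT1 had 263, 530.3 and 426 in heavy polysomes, against 4233, 6041 and 9588 in monosomes, a difference of -4.00 (SE 0.40, limma adjusted p = 1.87e-05). These 2 genes, with the highest and lowest loads of the members, differed in opposite directions and neither had overlapping groups.

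SRM had 2899.6, 1496 and 3605 in heavy polysomes, against 9576, 22362 and 10566 in monosomes, a log2 difference of -2.39 (SE 0.55, limma adjusted p = 0.00306). OAZ2 differed by -1.59 (SE 0.56, limma adjusted p = 0.0294) and AMD1 by -1.44 (SE 0.56, limma adjusted p = 0.0456), which edgeR placed just outside the threshold (adjusted p = 0.0528). OAZ1 at -1.20 (SE 0.56, limma adjusted p = 0.088) and ODC1 at -1.07 (SE 0.50, limma adjusted p = 0.0885) did not pass. Both passed in DESeq2 (adjusted p = 0.0213 and 0.0454). Both also passed without light library 2 (limma adjusted p = 0.01 with SE 0.35 and 0.0385 with SE 0.41). That library has no part in this comparison, so leaving it out kept both differences as they were and lowered only the SE. SMOX at 0.73 and SMS at -0.67 did not pass (limma adjusted p = 0.182 for both). Without replicate 1 or without replicate 3, AZIN1 (limma adjusted p = 0.247 and 0.154), OAZ2 (0.123 and 0.06) and AMD1 (0.101 and 0.101) lost their calls, and SAT1 and SRM kept theirs. Without replicate 2 all 5 members kept their calls and OAZ1 passed as well (limma adjusted p = 0.00555). Scaling to total reads moved the median of all genes to 1.39, and relative to that median the differences kept their directions, from -4.11 for SAT1 to 0.88 for AZIN1.

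**Figure D3:**
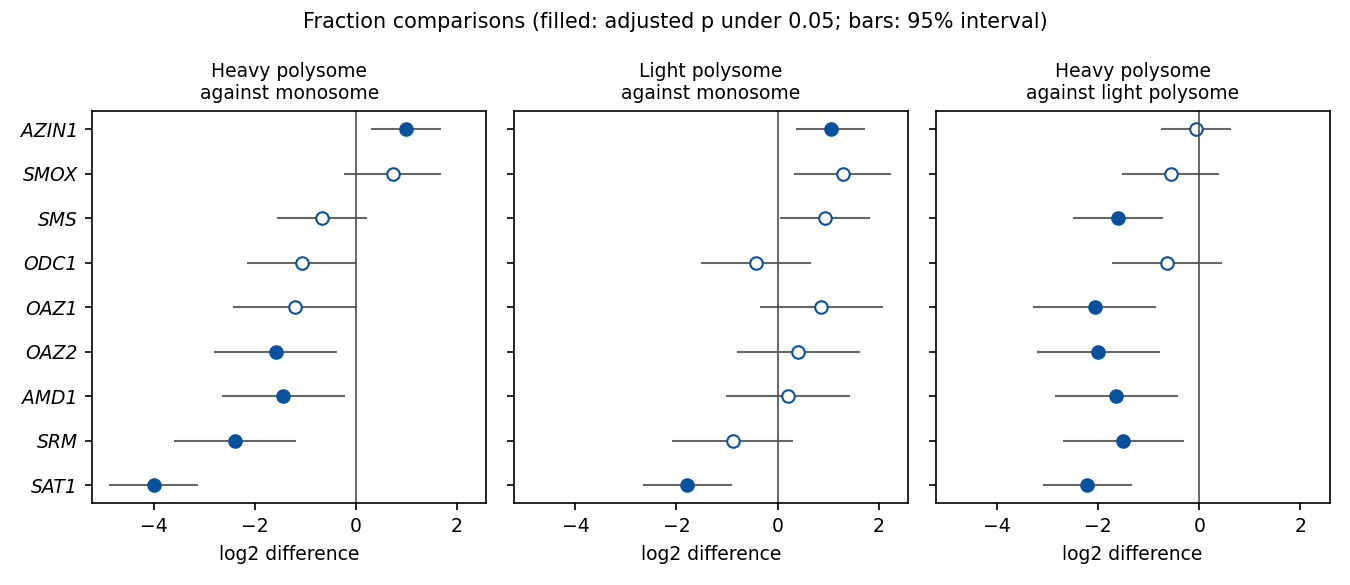
Log2 differences in scaled count (x axis) of the 9 genes for heavy polysome against monosome, light polysome against monosome and heavy polysome against light polysome, with 95% intervals; filled symbols have a limma adjusted p under 0.05. In heavy against light polysomes all 9 points lie below 0 and 6 are filled, and in light against monosome AZIN1 at 1.05 and SAT1 at -1.79 are filled.

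In light polysomes against monosomes, 1 member of 9 was higher (AZIN1), where 8.47% of all genes tested were called higher, and 1 was lower (SAT1), where 10.2% were called lower. The median log2 difference was 0.41 over the members and 0.035 over all genes. AZIN1 had scaled counts of 2044, 2383 and 2301 in light polysomes, against 1019.9, 1139.6 and 1083 in monosomes (log2 difference 1.05, SE 0.31, limma adjusted p = 0.0311). SAT1 had 1609, 1516 and 2437 in light polysomes, against 4233, 6041 and 9588 in monosomes (-1.79, SE 0.40, limma adjusted p = 0.00786). Neither gene's groups overlapped. Without replicate 1 or without replicate 3 both calls were lost (limma adjusted p = 0.347 and 0.286 for AZIN1, 0.08 and 0.0665 for SAT1). SMOX at 1.29 (SE 0.44, limma adjusted p = 0.0545) passed once replicate was a block in the fit (limma adjusted p = 0.0152), which made 2 members called higher, where 8.40% of all genes were. Without replicate 2, 5 members (AZIN1, OAZ1, OAZ2, SMOX and SMS) were called higher, where 17.3% of all genes were.

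The antizyme values in this comparison depended on whether light library 2 was included. OAZ1 had 32718, 7644 and 35803 in light polysomes, against 11900.1, 10801 and 11453 in monosomes. Libraries 1 and 3 of the light fraction were far above all monosome libraries and library 2 was below them, so the groups overlapped. With all libraries the log2 difference was 0.87 (SE 0.56, limma adjusted p = 0.304), and without light library 2 it was 1.59 (SE 0.39, limma adjusted p = 0.0119). OAZ2 likewise had 2562, 420.5 and 2020.0 in light polysomes, against 1239.8, 595 and 1259 in monosomes, and its groups overlapped in the same way. Its log2 difference was 0.41 (limma adjusted p = 0.651) with that library and 1.22 (limma adjusted p = 0.0293) without it, which brought the members called higher to 3 of 9, where 10.6% of all genes were. AMD1 moved to 0.86 without light library 2, against 0.21 with it, and passed in neither case (limma adjusted p = 0.192 and 0.836). OAZ2 was also lowest in gradient 2 in monosomes, which stay in the fit when only the light library is left out. With the whole of replicate 2 left out, the differences were 1.55 for OAZ1, 0.86 for OAZ2 and 0.65 for AMD1 (limma adjusted p = 0.00176, 0.0163 and 0.0687).

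Most of these mRNAs were lower in heavy than in light polysomes, relative to the typical gene. OAZ1, OAZ2, AMD1, SAT1, SRM and SMS passed, 6 of 9, where 17.5% of all genes tested were called lower. Members called higher were 0 of 9, where 14.7% of all genes were. By edgeR and DESeq2 they were also 0, where 1655 and 2096 of the 12720 genes were called higher. Only the 6 members called lower had an unadjusted p under 0.05 by limma, as did 5734 of the 12720 genes in either direction. All 9 members had a log2 difference below 0, as did 6159 of the 12720 genes tested. The median was -1.61 over the members and 0.049 over all genes. OAZ1 had 4328, 4187 and 6642 in heavy polysomes, against 32718, 7644 and 35803 in light polysomes, a difference of -2.07 (SE 0.56, limma adjusted p = 0.015). Without light library 2 it was -2.79 (limma adjusted p = 0.000111). The groups did not overlap with either set of libraries.

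SMS, in which neither comparison with monosomes passed, had 2394, 989 and 1783 in heavy polysomes, against 5708, 3771 and 5574 in light polysomes (log2 difference -1.61, SE 0.41, limma adjusted p = 0.0115). OAZ2 differed by -1.996 (SE 0.56, limma adjusted p = 0.017), SAT1 by -2.21 (SE 0.40, limma adjusted p = 0.00682) and AMD1 by -1.64 (SE 0.56, limma adjusted p = 0.0379). SRM, at -1.50 (SE 0.55, limma adjusted p = 0.0496), lay at the threshold and did not pass with replicate as a block (limma adjusted p = 0.0513), with no filter on reads (0.0514) or with a pseudocount of 0.5 (0.05). Without light library 2 the same direction held for all 9 and 6 were called lower, where 25.8% of all genes were. AMD1 was then at -2.30, SRM at -2.07, OAZ2 at -2.81, SAT1 at -2.34 and SMS at -1.80. AZIN1 at -0.064 (95% interval -0.73 to 0.60), ODC1 at -0.64 and SMOX at -0.56 did not pass. Without replicate 1 or without replicate 3 no member was called, and 0 and 1 genes were called among all tested. Without replicate 2, 6 members were called lower, where 30.2% of all genes were.

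The shift of gradient 2 was shared by several members. Light polysomes led for 7 of the 9 genes in both gradients 1 and 3, namely OAZ1, OAZ2, AMD1, ODC1, SMOX, SRM and SMS. In gradient 2 monosomes led for 5 of these 7 (OAZ1, OAZ2, AMD1, ODC1 and SRM). Among all genes kept, 2735 were led by light polysomes in gradients 1 and 3, and 1073 of them (39.23%) were led by monosomes in gradient 2. SAT1, SMOX and SMS had the same leading fraction in all 3 gradients, 3 of 9 members, as did 47.19% of genes kept. By mean share, light polysomes led for 6 of the 9 genes and for 24.17% of genes kept. Light library 2 moves with this pattern, and its part in it was not tested.

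Genes next to the core pathway were described with 3 lists set by function (hypusine modification, the methionine cycle with methylthioadenosine salvage, and other polyamine enzymes and transporters), of which 4 of 4, 7 of 7 and 14 of 20 genes were in the table and kept. Median log2 differences in MRL from the median gene were 0.19, 0.0056 and 0.10 for the 3 lists, against 0.011 for all genes tested. Calls in the hypusine list, whose enzymes turn a spermidine-derived group into hypusine on the translation factor EIF5A, went 1 higher and 1 lower of 4, where 22.0% and 24.7% of all genes were called for MRL. DOHH, the hydroxylase of the last step, was higher (MRL 3.83 ± 0.24, SD, n = 3; log2 difference 0.27, limma adjusted p = 0.0263). EIF5A2, the less widely expressed EIF5A paralog, was lower (2.33 ± 0.27; -0.45, limma adjusted p = 0.00882). EIF5A itself had 3.56 ± 0.16 and did not pass (0.17, limma adjusted p = 0.136), although it was higher in both polysome fractions than in monosomes (1.35 for heavy and 1.79 for light, limma adjusted p = 0.0163 and 0.00961).

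**Figure D4:**
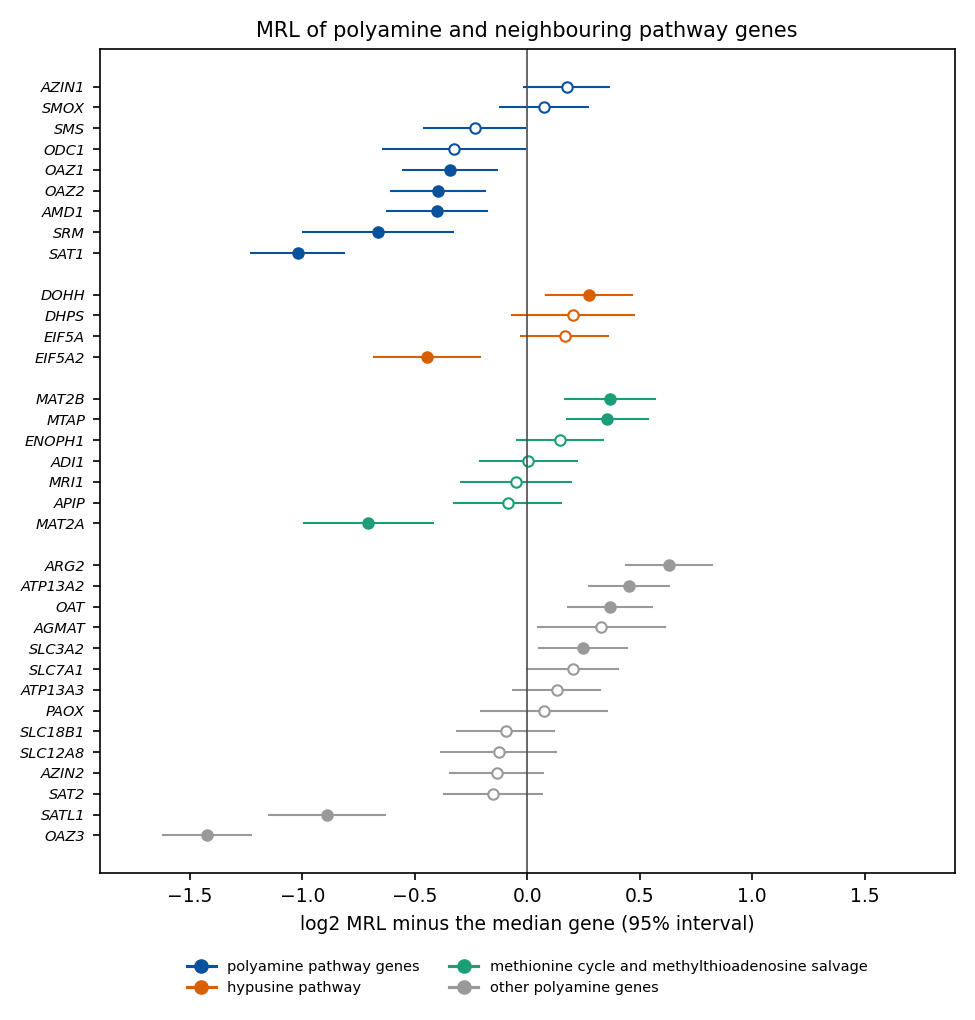
Log2 MRL minus the median gene (x axis, 95% intervals) for the 9 polyamine pathway genes and 3 lists of neighbouring genes, with filled symbols for a limma adjusted p under 0.05. The core genes reach -1.02 at SAT1 and have no filled symbol above 0, and each of the 3 lists has filled symbols on both sides of 0.

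In the methionine cycle and salvage list, which supplies S-adenosylmethionine to AMD1 and recycles the methylthioadenosine left by SRM and SMS, 2 of 7 genes were higher and 1 lower, against the same shares of all genes. MAT2A and MAT2B, the catalytic and regulatory subunits of methionine adenosyltransferase, stood on opposite sides. MAT2A had an MRL of 1.97 ± 0.41 and a log2 difference of -0.71 (limma adjusted p = 0.00291), with 72.9% ± 10.6 of its signal in monosomes. MAT2B had 4.10 ± 0.40 and 0.37 (limma adjusted p = 0.00966). MTAP, which cleaves methylthioadenosine, had 4.05 ± 0.16 and 0.36 (limma adjusted p = 0.00718). Heavy polysomes held 53.2% ± 6.51 of the MTAP signal, against 20.5% ± 5.25 in monosomes.

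Among the 14 other polyamine genes, 4 were higher and 2 lower in MRL, where 22.0% and 24.7% of all genes were. ARG2, the mitochondrial arginase that yields ornithine, had the highest load of the members and the 3 lists, 4.92 ± 0.58 (log2 difference 0.63, limma adjusted p = 0.000972). OAT, which consumes ornithine in mitochondria, had 4.09 ± 0.32 (0.37, limma adjusted p = 0.00761). The lysosomal polyamine exporter ATP13A2 had 4.33 ± 0.27 (0.45, limma adjusted p = 0.00264), and SLC3A2, a subunit of amino acid transporters, had 3.77 ± 0.29 (0.25, limma adjusted p = 0.0415). The lower genes were SATL1, a relative of SAT1, at 1.73 ± 0.28 (-0.89, limma adjusted p = 0.000814) and OAZ3, the testis antizyme, at 1.18 ± 0.0553 (-1.42, limma adjusted p = 7.69e-05). They averaged 30.1 and 29.6 reads per library, so their shares rest on few reads.

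Genes with the layout most like those of the extreme members were found by the Euclidean distance over the 9 shares (3 fractions in 3 gradients), over all genes kept. For SAT1 these were HOXB2 (distance 6.26 points, MRL 1.59), H4C8 (6.36 points, MRL 1.48) and TMEM14B (7.03 points, MRL 1.52). For AZIN1 they were MRFAP1L1 (4.15 points, MRL 3.62), KRBOX4 (5.02 points, MRL 3.54) and ZCCHC14 (5.55 points, MRL 3.62). In the authors' deposited table, SAT1 has the strict class Monosome and SMS the strict class Light polysome, and SMOX joins the light class under the relaxed rule. The other members are unassigned or mixed in the authors' deposited table under both rules.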

How the data were processed

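The authors deposited 1 table for the vehicle libraries. featureCounts and GRCh38 are named in the submitters' processing notes; the sources used here give no aligner and no strand setting. In the deposited signal each library's gene counts carry 1 common divisor, and dividing by the smallest step recovered whole reads for 100% of values in every library (tolerance 0.01 reads). The authors' deposited percent values were recomputed as shares of the scaled count within a replicate to within 5.49996e-08 points. The deposited MRL score was recomputed to within 2.17917e-09, and its weights were solved from the table. ERCC spike-ins, added per the labels, are not used here.

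Tests used limma 3.58.1 in R 4.3.3, two-sided, with Benjamini-Hochberg adjustment at 0.05 over the 12720 genes kept (941 removed); fold changes on log2(scaled count + 1), with pseudocount 1, understate low genes. The MRL test took 1 value per gradient. The fraction test fitted 9 libraries together without a block. Replicate numbers match the batch numbers in the labels, so a block fit was an alternative; deviations of same-numbered libraries correlated between -0.5395 and 0.391. Count tests on recovered reads used edgeR 4.0.16 (heavy against monosome 3063 genes higher and 3194 lower; light against monosome 1150 and 1264; heavy against light 1655 and 2608) and DESeq2 1.42.0 (3166 and 3434; 1334 and 1618; 2096 and 2812). Scripts were tested on simulated data. Gene models were GENCODE release 29 (13658 identifiers matched). Members and lists were chosen with earlier results of these data known. Named genes were the members, list genes called for MRL, EIF5A and the 3 nearest genes by shares of the highest and lowest member. Intervals on reads cover counting error only.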

Additional observations from a re-analysis of the deposited data

How the results depend on the processing

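With each replicate left out in turn, genes called ranged over 1258 to 3698 higher and 2164 to 3566 lower for MRL, 1271 to 3996 and 1866 to 3818 for heavy against monosome, 149 to 2202 and 413 to 2305 for light against monosome, and 0 to 3806 and 0 to 3845 for heavy against light. Members called lower ranged over 4 to 6, 2 to 5, 0 to 1 and 0 to 6 in the same order, and members called higher over 0 to 0, 0 to 1, 0 to 5 and 0 to 0. Over the same settings and without light polysome replicate 2, differences that changed sign ranged over -0.097 to 0.86 for AMD1 (lowest without replicate 1), -0.83 to 0.26 for ODC1 and -1.39 to 0.066 for SRM (both highest without replicate 2) in light against monosome, and -0.11 to 0.011 for AZIN1 in heavy against light (highest without replicate 3). Scaling to total reads moved the median of all genes to 1.39 in heavy against monosome and to 1.22 in light against monosome. In heavy against monosome, 7735 of the 12720 genes tested became higher and 1102 lower (87.53% of calls higher, against 50.35%). Among members, 2 were then higher and 1 lower. In light against monosome, 7390 of the 12720 genes became higher and 366 lower (95.28% of calls higher, against 45.25%). Among members, 6 were then higher and 0 lower. Most genes tested were thus called higher in both comparisons, and the members called higher are to be read against that. Under total-read scaling OAZ1 was 0.079, ODC1 0.21 and SMS 0.61 in heavy against monosome. With the same scaling ODC1 was 0.77 and SRM 0.31 in light against monosome, AZIN1 0.016 in heavy against light and SMOX -0.0073 for MRL. With polysome share in place of MRL, 1470 genes were lower, 63.41% of calls were higher (against 47.13%), 2 members were higher and 1 lower, and SMS was 0.046. MRL centred on the mean gene made 1 member higher. Light against monosome had 2 members higher with a replicate block, by edgeR and by DESeq2. The block changed no other member's call except SRM in heavy against light. Alternatives chosen after seeing the data were leaving out light polysome replicate 2 (3 members higher in light against monosome; 3137 genes higher in heavy against light), TMM scaling and a minimum of 50 reads for the fraction comparisons. The cause of these moves was not tested. With no filter on reads and with a pseudocount of 0.5, SRM lost its call in heavy against light (limma adjusted p = 0.0514 and 0.05), which left 5 members lower. With MRL weights of 1, 2 and 3, OAZ1 (limma adjusted p = 0.102) and SLC3A2 lost theirs and EIF5A passed. A pseudocount of 5 changed no member's call.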

Other observations

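Upstream ATGs and coding length were looked up for the members in GENCODE release 29, as a description with no test. At least 1 ATG lies in the annotated 5′ untranslated region of 6 of the 9 genes (OAZ2, AZIN1, AMD1, ODC1, SAT1 and SMS) and of 53.19% of the 12711 genes kept that have a transcript model. The median MRL was 3.12 over the 6761 genes with such an ATG and 3.31 over the 5950 without. Of the 6 members with such an ATG, OAZ2, AMD1 and SAT1 were called lower in MRL and AZIN1, ODC1 and SMS were not called. Of the 3 without one, OAZ1 and SRM were called lower and SMOX was not called.

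Short coding sequences went with lower loads across all genes kept, and members with short ones were SAT1 (513 nt), OAZ2 (567 nt) and OAZ1 (684 nt). Genes of up to 600 nt had a median MRL of 2.46 (quartiles 2.00 and 2.93), so OAZ2 at 2.40 lay near the middle of its length class and SAT1 at 1.56 below its lower quartile. In the class over 600 and up to 900 nt, the median was 3.08 (quartiles 2.51 and 3.70), and OAZ1 at 2.50 lay just under the lower quartile. Among genes over 900 and up to 1200 nt (median 3.25, quartiles 2.63 and 3.88), AMD1 at 2.40 and SRM at 2.05 were below the lower quartile and SMS at 2.70 above it. In the class over 1200 and up to 1500 nt (median 3.32, quartiles 2.71 and 3.89), AZIN1 (1344 nt) at 3.58 lay between the quartiles and ODC1 (1383 nt) at 2.58 below the lower one, and SMOX (1665 nt) at 3.33 lay at the median of its class, 3.33. Whether coding length or upstream ATGs account for any member's load was not tested.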
